A study of Mus musculus with 8 samples.

Results

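The Slc25 genes encode the mitochondrial carriers, a family of mostly inner-membrane proteins that move metabolites, nucleotides and cofactors between the cytosol and the mitochondrial matrix. Every protein-coding mouse gene of the GRCm38 annotation whose symbol begins with Slc25, except Slc25a46, was included. This gave 46 of 21883 protein-coding genes. The measurement was ATAC-seq, in which a transposase cuts and tags open chromatin, and the values were read counts over 59906 regions shared by all libraries. Each gene was given the regions that overlapped its span or lay within 5 kb of it, and 40 of the 46 genes had at least 1. These 40 genes held 104 regions. The libraries came from conventional type 1 dendritic cells (cDC1), the dendritic cells that present captured antigen to CD8 T cells, sorted from mouse spleen. There were 4 WT libraries and 4 OPA1KO libraries, the latter from CD11c-Cre;OPA1 flox mice, and no treatment was named beyond genotype. CD11c-Cre acts in cells that use the CD11c promoter, which include dendritic cells and some macrophages. OPA1, a dynamin-like protein of the inner membrane, acts in mitochondrial fusion and in keeping the cristae folded. Age, sex, the number of mice behind a library and whether WT mice carried Cre are not given in the sources used here. In this design the comparison asked whether chromatin at these genes differed when OPA1 was lost.

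Mitochondrial carriers are built in the cytosol from nuclear genes and are inserted in the inner membrane, where each exchanges or admits a narrow set of substrates. Their cargo includes ADP and ATP, phosphate, the acids of the TCA cycle and of the malate-aspartate shuttle, amino acids, coenzyme A, NAD, S-adenosylmethionine, iron and glutathione. In dendritic cells, as in other cells, this traffic links respiration in the matrix to synthesis and signalling in the cytosol. ATAC-seq reads how open the DNA at a gene is, not how much RNA or carrier protein the cell makes.

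Total counts in regions ranged from 4660826 to 7590578 per library. Levels are library-size normalised counts (CPM) scaled by TMM factors, which ranged from 0.947 to 1.03. All 10 cDC1 markers had a region, and their summed level was 668 to 712 CPM in WT and 687 to 725 CPM in OPA1KO libraries. In WT the sum was led by Cadm1 (174 CPM), Wdfy4 (139 CPM) and Naaa (116 CPM), while Xcr1 was at 18.2 CPM and Cd8a at 8.62 CPM. The median cDC1 marker was at 48.2 CPM, and sums over lists of different length cannot be compared directly. Some markers of other cells were open too: in WT, 3 of 5 cDC2 markers had a region and summed to 222 to 307 CPM, led by Sirpa (209 CPM, above each cDC1 marker), and 2 of 4 T cell markers, Cd3g and Cd3d, summed to 103 to 144 CPM. All 4 B cell markers had a region and summed to 141 to 144 CPM in WT, led by Cd79a (104 CPM). The 4 plasmacytoid dendritic cell markers summed to 48.1 to 55.2 CPM in WT. The neutrophil marker S100a9 was at 77.4 CPM and the red cell marker Klf1 at 59.8 CPM, whereas Mgl2, Clec10a, Cd3e, Bcl11b, Ncr1 and Ly6g had no region. The 7 macrophage and monocyte markers summed to 125 to 143 CPM in WT and 114 to 118 CPM in OPA1KO, so the groups did not overlap. They overlapped in the marker sums of every other cell type searched. Among single gene sums, the groups did not overlap at 3.31% of all genes. The macrophage and monocyte markers did not move together. Log2 fold changes of OPA1KO over WT were -0.65 for C1qa, -0.86 for C1qb, -0.78 for C1qc and -0.68 for Vcam1. They were -0.05 for Csf1r, 0.13 for Adgre1 and 0.15 for Ly6c2. The smallest edgeR adjusted p among the 7 was 0.470, for C1qc. In a bulk library, fewer cells of a type and fewer reads per cell cannot be told apart. The targeted gene, Opa1, had 1 region, at 42.1 ± 3.85 CPM in WT and 39.2 ± 3.73 CPM in OPA1KO (mean ± SD, n = 4 each), and a region outside the deleted part would not check the deletion. WT replicate 2 was the highest WT library for 18 of the 40 Slc25 genes and for 13 of the 16 most open. It also had the lowest TMM factor, 0.947, which raises its scaled CPM. The same count was not made over all genes, so whether this is particular to the carriers was not tested.

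In WT libraries, regions over known start sites held 1319 to 1394 CPM of the 2824 to 3076 CPM summed over the family's regions. The first range is a lower bound, because some genes had no start-site entry. Regions of those genes, among them Slc25a41 (306 CPM) and Slc25a32 (151 CPM), were not counted as start-site regions. The sequences before 4 start sites are shown because they belong to highly open carriers of different substrate classes with a region over the site. They are RefSeq sequences of build GRCm38.p6, and each is the 250 bases before a start site, printed 5′ to 3′ along the gene. Capitals mark matches on either strand to the GC box GGGCGG and the CCAAT box CCAAT. The windows lie at chr19:43674882-43675131 on the minus strand for the iron carrier gene Slc25a28, at chr9:120110132-120110381 on the plus strand for the glycine carrier gene Slc25a38, at chr8:70212282-70212531 on the minus strand for the coenzyme A carrier gene Slc25a42, and at chr10:91123968-91124217 on the minus strand for the phosphate carrier gene Slc25a3.
Slc25a28: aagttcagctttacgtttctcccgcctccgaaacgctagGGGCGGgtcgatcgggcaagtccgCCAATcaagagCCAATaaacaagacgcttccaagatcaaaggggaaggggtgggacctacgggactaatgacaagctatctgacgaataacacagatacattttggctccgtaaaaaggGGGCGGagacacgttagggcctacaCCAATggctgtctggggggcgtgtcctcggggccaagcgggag
Slc25a38: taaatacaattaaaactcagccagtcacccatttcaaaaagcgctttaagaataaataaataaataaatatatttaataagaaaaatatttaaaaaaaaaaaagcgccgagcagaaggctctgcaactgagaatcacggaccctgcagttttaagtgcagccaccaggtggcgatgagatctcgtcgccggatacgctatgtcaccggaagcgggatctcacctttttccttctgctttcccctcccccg
Slc25a42: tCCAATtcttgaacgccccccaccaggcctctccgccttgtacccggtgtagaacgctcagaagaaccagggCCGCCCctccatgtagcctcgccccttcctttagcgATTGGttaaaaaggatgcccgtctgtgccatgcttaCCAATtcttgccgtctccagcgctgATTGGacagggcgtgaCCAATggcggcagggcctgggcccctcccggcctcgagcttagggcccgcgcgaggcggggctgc
Slc25a3: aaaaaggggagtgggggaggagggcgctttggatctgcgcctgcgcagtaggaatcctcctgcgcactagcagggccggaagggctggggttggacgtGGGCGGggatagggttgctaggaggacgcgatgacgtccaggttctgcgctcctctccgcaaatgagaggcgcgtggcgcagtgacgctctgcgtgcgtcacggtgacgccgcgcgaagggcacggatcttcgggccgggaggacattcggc

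The 4 windows differed in composition. GC content was 55.6% for Slc25a28, 41.6% for Slc25a38, 63.6% for Slc25a42 and 66.4% for Slc25a3. Of the 9 motifs searched, none matched in the Slc25a38 window, although a region of 55.0 ± 5.72 CPM in WT (mean ± SD, n = 4) covered its start site. The region over the Slc25a42 start site was at 167 ± 10.9 CPM, that over Slc25a28 at 160 ± 12 CPM and that over Slc25a3 at 122 ± 12.5 CPM. A match describes the letters of a window and is not evidence that a factor binds there.

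Across the family, 36 of the 46 genes matched the start-site table, with 46 windows in all. The GC box GGGCGG was in 69.6% of those windows, against 42.6% of all 21262 windows of protein-coding genes. Among windows with a region over the start site the shares were 75.9% and 63.8%, at the same median GC content of 61.2%. The E-box CACGTG was in 17.4% of Slc25 windows and 6.63% of all windows. Its 8 windows belonged to 7 genes, among them the citrate carrier gene Slc25a1, the ornithine carrier gene Slc25a15 and the pyrimidine nucleotide carrier genes Slc25a33 and Slc25a36. CCAAT was in 45.7% of Slc25 windows against 35.4%, and the TATA motif TATAAA in 4.35% against 11.6%. The 2 genes with TATAAA were Slc25a18 and Slc25a21, which were also the 2 lowest in WT among genes with a region. Slc25a1, Slc25a25, Slc25a47 and Slc25a54, which had windows but no region, held no TATAAA. The NRF1 motif GCGCATGC was in 4.35% against 2.93%, the ETS motif CCGGAAGT in 2.17% against 3.79% and the CRE motif TGACGTCA in 4.35% against 1.92%. Among the 29 Slc25 windows with a region over the start site, 0 held the NRF1 motif (5.01% of all such windows), 3.45% the CRE motif (3.09%), 3.45% the ETS motif (6.94%), 20.7% the E-box (9.15%), 41.4% CCAAT (36.9%) and 0 TATAAA (5.22%). The PU.1 motif GAGGAAGT (2.23% of all windows) and the ATF4 motif TTGCATCA (0.79%) had no match in a Slc25 window. These shares are descriptions, and windows of the same gene overlap in places. Both strands were searched for every motif.

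Most carrier genes had a region within 5 kb in the set shared by all libraries, which is not a call in WT alone. At 12 of them every region was also within 5 kb of another protein-coding gene. A region was present at 87.0% of the Slc25 genes, against 70.0% of all protein-coding genes (15313 of 21883). Those with no region in the table used here included Slc25a1 (citrate), Slc25a2 (ornithine), Slc25a25 (ATP-Mg/phosphate), Slc25a47 and Slc25a54. Among the 36 genes with a start-site entry, 25 (69.4%) had a region over a start site, against 51.3% of all genes (8971 of 17491). The 26 regions over start sites had a median WT level of 37.0 CPM, with a range of 7.98 to 167 CPM. The 55 other regions of genes with a known start site had a median of 5.94 CPM, with a range of 2.02 to 84.8 CPM. Start-site regions were also wider (median 557 bp against 302 bp), and per kb of region the medians were 55.8 and 19.5 CPM. Of the 104 regions, 75 overlapped a gene span, 29 lay outside it and 37 were also within 5 kb of another protein-coding gene. Whether a region within a span lies in an exon or an intron was not analysed here.

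Summed over its regions, the median Slc25 gene stood at 56.0 CPM in WT, against 52.1 CPM for all protein-coding genes with a region, and 21 of 40 Slc25 genes were above the latter value. Per kb of region the medians were 48.1 and 40.5 CPM, with 24 of 40 above. Levels ran from 306 CPM at Slc25a41 to 2.76 CPM at Slc25a21. The order was gradual: in 35 of the 39 pairs of neighbours in it, the 4 WT libraries of the genes overlapped. As a description across the 40 genes, which share libraries, Spearman's coefficient was -0.29 between gene length and summed level and 0.12 between gene length and number of regions.

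**Figure D1:**
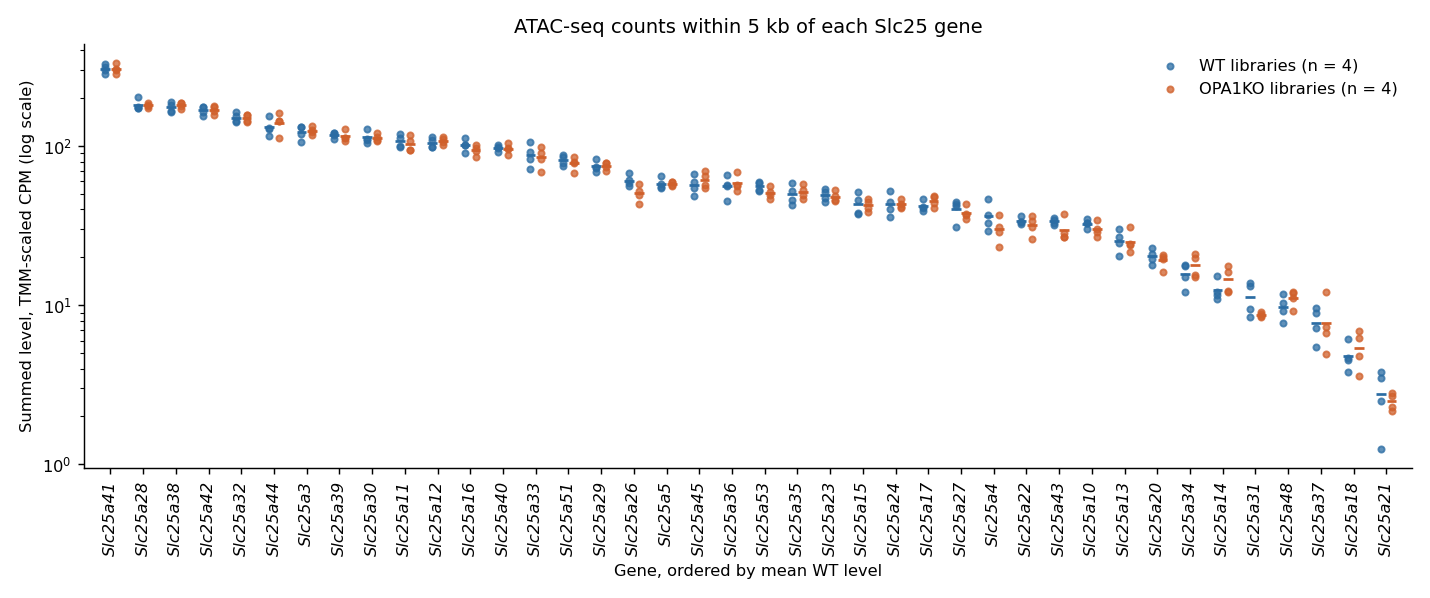
Summed level of the 40 Slc25 genes with a region, in TMM-scaled CPM on a log axis, ordered by mean WT level. Points are libraries (4 WT, 4 OPA1KO) and bars are group means; the levels fall from 306 CPM at Slc25a41 to 2.76 CPM at Slc25a21, and the 2 groups overlap at every gene.

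The highest value carried the symbol of Slc25a41, an ATP-Mg/phosphate carrier gene, but came from a single region outside its gene model. That region (chromosome 17, 57031407 to 57032363, GRCm38) lies 409 bp from the span of Slc25a41 and is also within 5 kb of Khsrp, an RNA-binding protein gene. It measured 282, 330, 299 and 312 CPM in WT replicates 1 to 4, and 299, 305, 331 and 283 CPM in OPA1KO replicates 1 to 4. The level exceeded that of 98.8% of all genes with a region, and to which of the neighbouring genes the openness belongs cannot be told apart. The next gene, Slc25a28 (mitoferrin-2, an iron importer), drew 87.8% of its level from the region over its own start site. It measured 175, 204, 174 and 176 CPM in WT libraries and 178, 175, 188 and 182 CPM in OPA1KO.

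Slc25a38, the glycine importer that feeds haem synthesis, measured 164, 189, 166 and 180 CPM in WT libraries and 171, 185, 179 and 187 CPM in OPA1KO. Of its level, 48.5% came from a region also near Rpsa, a ribosomal protein gene. Slc25a42, a coenzyme A carrier gene, had 1 region, over its start site, at 175, 177, 164 and 153 CPM in WT libraries and 176, 157, 177 and 167 CPM in OPA1KO. The WT libraries of Slc25a38 and Slc25a42 overlapped. Slc25a32, a carrier tied to folate and flavin nucleotides, measured 144, 164, 142 and 154 CPM in WT libraries and 145, 156, 156 and 141 CPM in OPA1KO, in 1 region shared with Dcaf13.

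Slc25a44, the branched-chain amino acid importer, measured 116, 155, 127 and 130 CPM in WT libraries and 144, 143, 162 and 113 CPM in OPA1KO. Slc25a3, which brings in phosphate for ATP synthesis, measured 106, 133, 120 and 131 CPM in WT libraries and 122, 126, 133 and 118 CPM in OPA1KO. All of the Slc25a3 signal was in 1 start-site region of 549 bp, which made it the second most open member per kb, at 223 CPM per kb against 320 at the Slc25a41 region. Slc25a39, a glutathione importer, measured 121, 122, 110 and 117 CPM in WT libraries and 112, 112, 129 and 108 CPM in OPA1KO. In each of these genes the 2 groups overlapped.

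Neighbouring genes shared regions with many of the carriers, as the plot of WT levels split by sharing shows. At 22 genes some of the level came from a region near another protein-coding gene, and at 12 all of it did: Slc25a41, Slc25a32, Slc25a11, Slc25a40, Slc25a45, Slc25a23, Slc25a27, Slc25a22, Slc25a10, Slc25a34, Slc25a31 and Slc25a48. With regions near no other gene alone, the order began with Slc25a28 (182 CPM), Slc25a42 (167 CPM), Slc25a3 (122 CPM), the aspartate-glutamate carrier gene Slc25a12 (105 CPM) and Slc25a38 (90.1 CPM). That ordering was chosen after seeing the data, and 5 of the first 8 genes were in both lists.

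**Figure D2:**
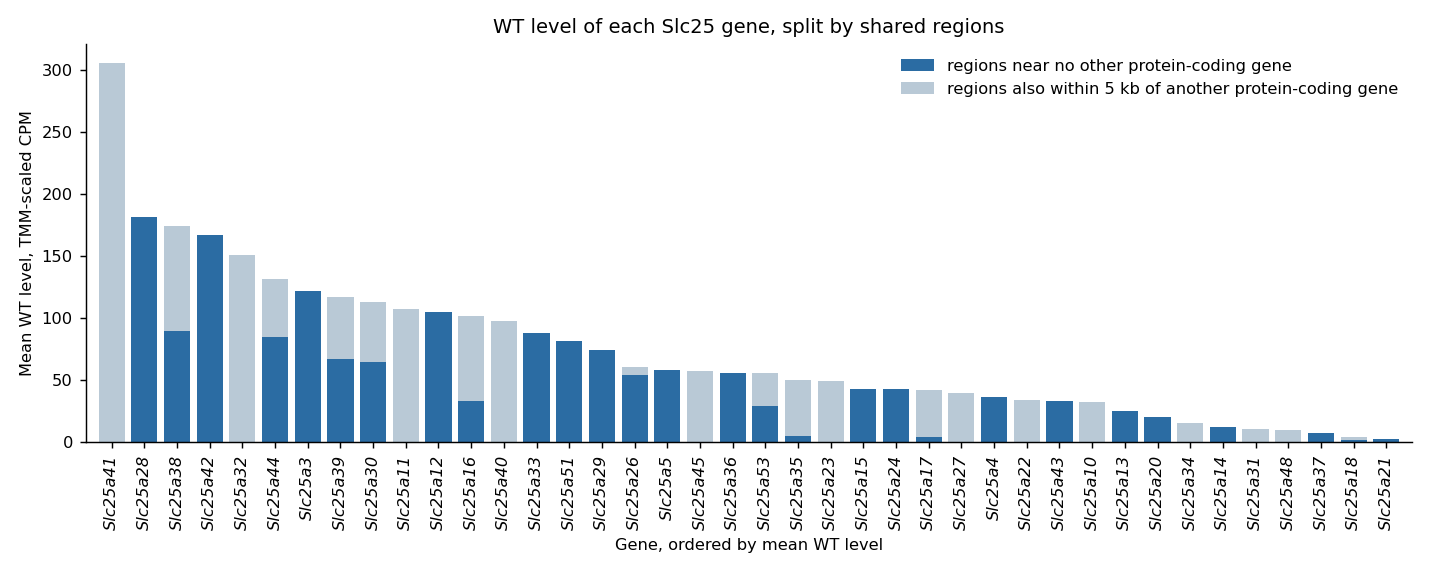
Mean WT level of each Slc25 gene in TMM-scaled CPM (4 libraries), split into regions near no other protein-coding gene (dark) and regions also within 5 kb of another protein-coding gene (light). The bar of Slc25a41 (306 CPM) is wholly light, while those of Slc25a28, Slc25a42 and Slc25a3 are wholly dark.

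At the low end, Slc25a21 (oxodicarboxylates) measured 3.50, 1.25, 3.80 and 2.51 CPM in WT libraries and 2.70, 2.18, 2.82 and 2.30 CPM in OPA1KO, from 1 region inside its span, 174 kb from its nearest start site. Slc25a18, a glutamate carrier gene, measured 3.80, 4.52, 4.64 and 6.10 CPM in WT libraries and 6.26, 6.89, 4.83 and 3.61 CPM in OPA1KO. Slc25a37, mitoferrin-1, the iron importer known for its role in red cell precursors, measured 9.58, 8.88, 5.48 and 7.17 CPM in WT libraries and 12.1, 7.25, 4.96 and 6.72 CPM in OPA1KO. The summed levels of the 2 mitoferrin genes thus stood at opposite ends in WT, at 182 ± 14.3 CPM for Slc25a28 and 7.78 ± 1.83 CPM for Slc25a37 (mean ± SD, n = 4). The Slc25a37 level came from 2 regions outside its span, 3.32 kb and 0.025 kb from it. Slc25a37 had no start-site entry, so openness at its own start was not compared. Slc25a48 measured 7.75, 11.7, 10.3 and 9.15 CPM in WT libraries and 11.9, 12.1, 9.25 and 11.2 CPM in OPA1KO, from 2 regions outside its span that are also near Il9.

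Other pairs with related substrates also differed in level. Of the ADP/ATP exchangers, Slc25a5 was at 58.0 ± 4.49 CPM, Slc25a4 at 36.4 ± 7.39 CPM and Slc25a31, best known from testis, at 11.2 ± 2.68 CPM in WT. The Slc25a31 value came from 1 region 3.42 kb outside its span, also near Intu. Slc25a5 has processed copies elsewhere in the genome, so its counts are uncertain. Of the aspartate-glutamate carriers of the malate-aspartate shuttle, Slc25a12 was at 105 ± 7.97 CPM and Slc25a13 at 25.5 ± 4.12 CPM. Their partner, the oxoglutarate carrier gene Slc25a11, was at 108 ± 9.68 CPM. The NAD carrier gene Slc25a51 was at 82.0 ± 5.83 CPM, the glutathione carrier gene Slc25a40 at 97.6 ± 4.34 CPM, and the carnitine-acylcarnitine carrier gene Slc25a20, which serves fatty acid oxidation, at 20.3 ± 2.04 CPM (all mean ± SD, n = 4 WT libraries).

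Against this baseline, no difference at a carrier gene in OPA1KO cells passed the test. The edgeR quasi-likelihood test, adjusted over all features by Benjamini-Hochberg and read at 0.05, called 0 of 40 Slc25 genes and 0 of 104 Slc25 regions. Over all features the test called 0.0131% of gene sums (2 of 15259) and 0.0203% of regions (12 of 59247), so a count of 0 here is near the background. The smallest edgeR adjusted p was 0.838 for a gene and 0.353 for a region. At an unadjusted p under 0.05 there was 1 of 40 genes against 5.36% of all genes, and 5 of 104 regions against 6.38% of all regions. Limma-voom and DESeq2 also called 0 Slc25 genes and 0 Slc25 regions.

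The sizes of the differences were small. Log2 fold changes of OPA1KO over WT ranged from -0.35 to 0.22, with a median of -0.02 against -0.02 for all genes. Of the 40 genes, 26 (65.0%) were lower and 14 higher in OPA1KO, against 58.9% lower among all genes. Scaled by total counts without TMM factors, 47.5% of Slc25 genes and 51.2% of all genes were lower, so the lean of the count depends on the scaling. The 95% interval lay within 1.2-fold in either direction for 17 genes and within 1.5-fold for 36. The 4 genes whose interval reached beyond 1.5-fold were Slc25a4, Slc25a31, Slc25a18 and Slc25a21. The standard error of the log2 fold change had a median of 0.08 over the 8 most open genes and 0.19 over the 8 least open. Summed over all 104 regions, the family stood at 2926 ± 111 CPM in WT and 2901 ± 75.0 CPM in OPA1KO (mean ± SD, n = 4 each).

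**Figure D3:**
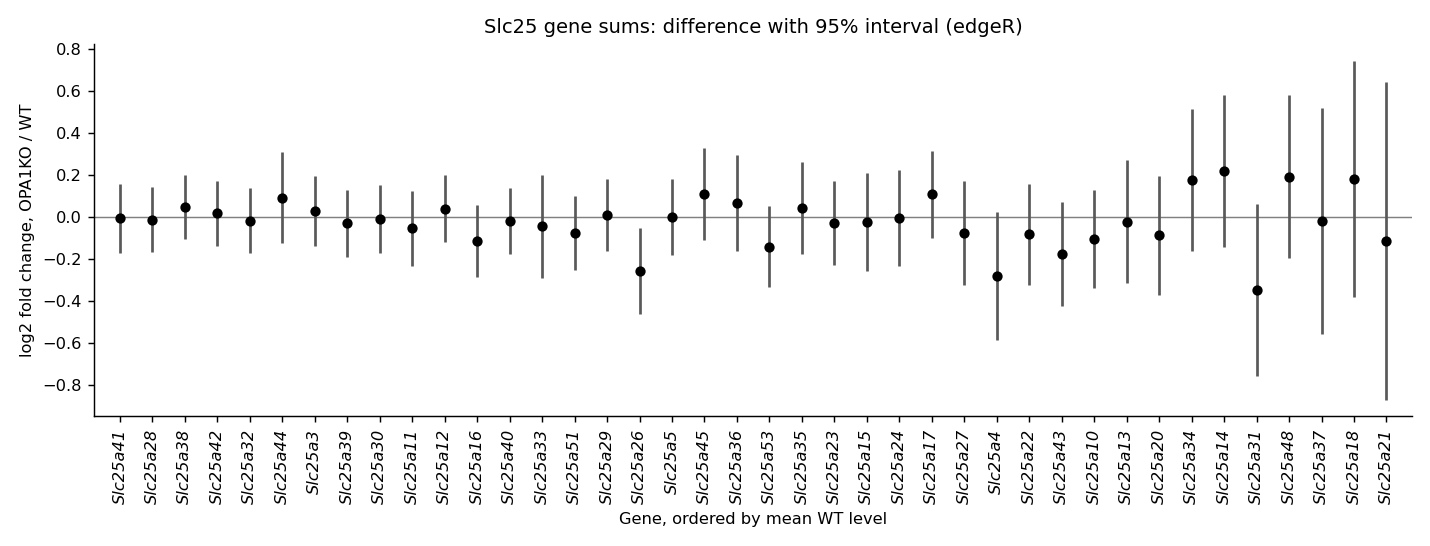
Log2 fold change of OPA1KO over WT for each Slc25 gene sum with its 95% interval from edgeR, in the order of WT level. Of the 40 intervals, only that of Slc25a26 (-0.46 to -0.05) leaves out 0, and the intervals widen toward the least open genes on the right.

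By substrate class, no class had a called gene. Of the 3 ADP/ATP exchanger genes, Slc25a4 (-0.28 ± 0.15) and Slc25a31 (-0.35 ± 0.20, log2 ± SE) were below 0, and Slc25a5 was at -0.00 ± 0.09, with group means of 58.0 and 58.1 CPM. Without WT replicate 1 the value of Slc25a4 was -0.13, and without OPA1KO replicate 1 it was -0.18. The 3 measured genes of the dicarboxylate and oxoglutarate class (Slc25a10, Slc25a11 and Slc25a21) were below 0 with TMM factors and with total counts, with medians of -0.11 and -0.08. The 3 measured ATP-Mg/phosphate carrier genes (Slc25a23, Slc25a24 and Slc25a41) were below 0 with TMM factors, with a median of -0.01, but 2 of them were above 0 with total counts. The aspartate and glutamate class was split, with 2 above and 2 below 0, and the 5 measured genes of the carnitine and basic amino acid class had 3 above and 2 below. Coenzyme A and peroxisomal carriers had 2 above and 1 below. Phosphate (Slc25a3, 0.03 ± 0.08), glycine (Slc25a38, 0.05 ± 0.07) and branched-chain amino acids (Slc25a44, 0.09 ± 0.10) were each above 0 by less than their standard error. None of these differences passed the edgeR test, and the classes were described by counts alone.

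Slc25a26, which imports S-adenosylmethionine, the methyl donor, into the matrix, had the smallest p of the family. Its summed level was 60.8, 58.9, 67.3 and 55.8 CPM in WT replicates 1 to 4, and 49.5, 43.0, 51.9 and 58.0 CPM in OPA1KO replicates 1 to 4. OPA1KO replicate 4 lay within the WT range and the other 3 OPA1KO libraries lay below it. The log2 fold change was -0.26 ± 0.10 (edgeR unadjusted p = 0.0158, adjusted p = 0.838). The unadjusted edgeR p was 0.0733 without WT replicate 3 and 0.0805 without OPA1KO replicate 2. The summed macrophage and monocyte markers, though not each of them, were also lower in OPA1KO libraries, as given above. Their part in this value was not tested.

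With 8 regions, Slc25a26 (chromosome 6, 94500295 to 94604659) also had more regions than any other Slc25 gene, and the difference was uneven along it. A region inside the span, at 94532110 to 94532387, measured 6.54, 4.52, 3.38 and 6.99 CPM in WT libraries and 3.41, 1.09, 1.21 and 2.95 CPM in OPA1KO (log2 fold change -1.30 ± 0.35, edgeR adjusted p = 0.353). A second, at 94536216 to 94536684, measured 3.65, 6.23, 4.85 and 6.46 CPM in WT libraries and 3.98, 1.81, 2.41 and 1.15 CPM in OPA1KO (-1.15 ± 0.34, edgeR adjusted p = 0.422). In each the groups overlapped by 1 OPA1KO library. These 2 regions were picked because their edgeR unadjusted p was under 0.05 in these data, a choice that favours large differences. They made up 60.9% of the difference in the summed level, and the other 6 together stood at 50.0 ± 6.95 CPM in WT and 46.1 ± 6.29 CPM in OPA1KO. The strongest region, at the lower end of the gene model, stood at 14.2 ± 2.52 CPM in WT and 15.0 ± 2.13 CPM in OPA1KO, so the direction turned when that region alone stood for the gene (log2 fold change 0.08).

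**Figure D4:**
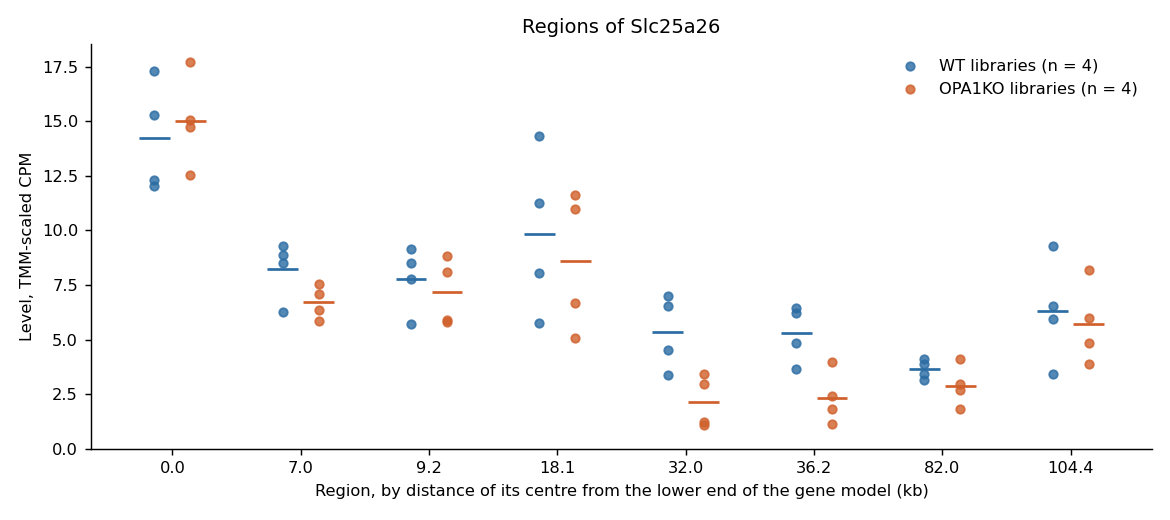
Level of each of the 8 regions of Slc25a26 in TMM-scaled CPM, placed by the distance of the region's centre from the lower end of the gene model in kb. Points are libraries (4 WT, 4 OPA1KO) and bars are means; the regions at 32.0 and 36.2 kb have means of 5.36 and 5.30 CPM in WT and of 2.16 and 2.34 CPM in OPA1KO.

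The other genes with the smallest p differed by less, relative to their spread. Slc25a4, an ADP/ATP exchanger, measured 46.5, 32.9, 36.7 and 29.4 CPM in WT libraries and 23.3, 29.0, 31.1 and 36.7 CPM in OPA1KO, in 1 region over its start site. Its groups overlapped, and the edgeR unadjusted p was 0.0678. Slc25a31 measured 9.43, 8.41, 13.7 and 13.3 CPM in WT libraries and 8.39, 9.06, 8.58 and 8.85 CPM in OPA1KO, where WT replicate 2 lay within the OPA1KO range and the other 3 WT libraries above it. Slc25a53, a family member with no substrate assigned here, measured 58.8, 53.1, 59.9 and 52.0 CPM in WT libraries and 46.2, 51.5, 49.2 and 56.2 CPM in OPA1KO (-0.14 ± 0.09, log2 ± SE). Slc25a43, likewise unassigned, measured 35.3, 32.9, 32.1 and 34.2 CPM in WT libraries and 28.4, 37.3, 26.9 and 26.9 CPM in OPA1KO, where replicate 2 was above every WT library (-0.18 ± 0.12). Slc25a16, linked to coenzyme A transport, measured 91.1, 113, 101 and 102 CPM in WT libraries and 97.2, 102, 92.8 and 85.1 CPM in OPA1KO (-0.11 ± 0.08). Of the Slc25a16 level in WT, 67.1% came from regions outside its span that are also near Dna2. The log2 fold change of Slc25a16 was -0.06 without WT replicate 2 and -0.06 without OPA1KO replicate 4. Slc25a12, among the genes with 6 regions, measured 98.4, 115, 98.5 and 109 CPM in WT libraries and 106, 113, 111 and 102 CPM in OPA1KO (0.04 ± 0.08). The groups overlapped in each of these genes.

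At the level of regions, 57 were lower and 47 higher in OPA1KO, with a median log2 fold change of -0.01 against 0.00 for all regions. The groups did not overlap at 2 of 104 regions, against 3.95% of all regions, and at 0 of 40 gene sums, against 3.31% of all genes. The first was a region over the upper coordinate end of the Slc25a44 span (chromosome 3, 88424999 to 88425401), with 37.2, 39.6, 35.9 and 35.9 CPM in WT libraries and 46.2, 42.6, 42.9 and 40.3 CPM in OPA1KO (log2 fold change 0.21 ± 0.11, edgeR adjusted p = 0.805). The other was the region over a start site of Slc25a53 (chromosome X, 137037886 to 137038542), with 16.6, 15.9, 19.2 and 17.9 CPM in WT libraries and 13.2, 13.6, 13.7 and 14.4 CPM in OPA1KO (-0.34 ± 0.16, edgeR adjusted p = 0.778). Besides that region and the 2 of Slc25a26, an unadjusted p under 0.05 was reached by a region within Slc25a43 (5.94 ± 0.98 CPM in WT, 3.93 ± 1.54 CPM in OPA1KO) and a region within Slc25a38. The latter, the only higher region of the 5, stood at 10.6 ± 2.36 CPM in WT and 15.9 ± 3.13 CPM in OPA1KO (log2 fold change 0.58 ± 0.19, edgeR adjusted p = 0.533).

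**Figure D5:**
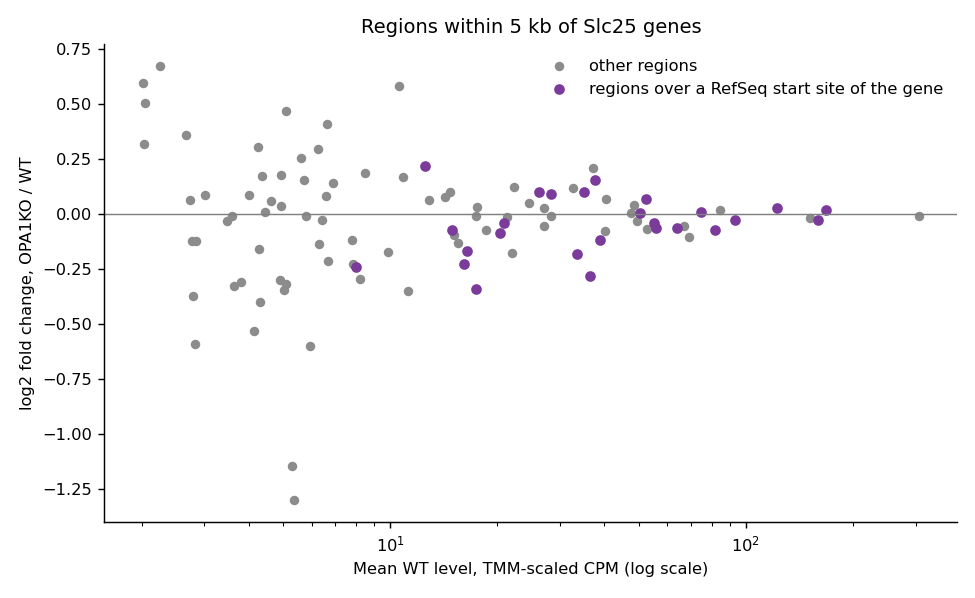
Log2 fold change of OPA1KO over WT for each of the 104 Slc25 regions against its mean WT level in TMM-scaled CPM on a log axis, with regions over a RefSeq start site of the gene in purple. The start-site regions lie between -0.34 and 0.22, and the 2 lowest points, at -1.30 and -1.15, are regions of Slc25a26 at 5.36 and 5.30 CPM.

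Genes that work beside the carriers were described in the same way. Of the family members under other symbols, Ucp1, Ucp2, Ucp3, Mtch1 and Mtch2, 0 of 5 were called and the 5 fold changes were above 0, with a median of 0.09. Ucp2, an uncoupling-protein gene known in immune cells, had 120 ± 16.9 CPM in WT and 125 ± 11.8 CPM in OPA1KO. Of 16 genes for the import of carriers through the outer and inner membranes, 0 were called, 5 were higher and 11 lower, with a median of -0.06. Among them Timm9, a small chaperone of the intermembrane space, stood at 29.3 ± 3.62 CPM in WT and 24.2 ± 2.26 CPM in OPA1KO (edgeR unadjusted p = 0.041, adjusted p = 0.906). Timm8a1, which acts in the same space, stood at 18 ± 1.14 CPM in WT and 14.8 ± 2.23 CPM in OPA1KO, with groups that did not overlap. Timm9 was the only gene of the 16 with an edgeR unadjusted p under 0.05, against 5.36% of all genes. Timm8a1 was the only gene of the 16 whose groups did not overlap, against 3.31% of all genes. Of 21 other transport genes of the mitochondrial membranes, 19 were tested and 0 called, with 4 higher, 15 lower and a median of -0.03. With total counts 11 of the 19 were lower, and over all genes 58.9% were lower with TMM factors and 51.2% with total counts. These include the pyruvate carrier gene Mpc2, at 330 ± 25.5 CPM in WT and 326 ± 23.3 CPM in OPA1KO, and the porin gene Vdac3, at 67.5 ± 5.56 CPM in WT and 59.6 ± 3.80 CPM in OPA1KO (mean ± SD, n = 4 each). Against the background of 0.0131% called over all genes, the counts of 0 in these lists are near what all genes show.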

How the data were processed

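Per the labels, cDC1 were sorted from spleen and nuclei were tagged with transposase and amplified. The authors deposited raw read counts per region in 1 table of 8 libraries. The submitters' processing notes name cutadapt 1.9, Picard 1.65, SAMtools, MACS2 2.1.0.20150603, bedtools and the builds mm10 and GRCm38. How peaks were merged, whether both ends of a pair were counted and whether cut sites were shifted are not given in the sources used here.

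Gene spans and start sites came from RefSeq tables of GRCm38.p6, matched by symbol and gene ID. Counts were summed per gene over regions within 5 kb, a region near several genes counting for each. Regions passing filterByExpr (59247) and gene sums (15259) were fitted with edgeR 4.0.16 (R 4.3.3), robust quasi-likelihood, TMM factors of the region table, and adjusted over all features at 0.05. Alternatives used limma 3.58.1, DESeq2 1.42.0, other scalings, filters, windows and left-out libraries. The 12 pairs of libraries within groups differed beyond sampling noise (chi-square per degree of freedom 2.16 to 4.74), so none was merged. Since the labels do not tie libraries to mice, p-values measure the spread between libraries, which may be technical.

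Genes given in every library were the 8 highest and 4 lowest in WT, those called or with groups that did not overlap (none), the 6 with the smallest p and up to 3 with the most regions. Other genes, regions and genes of the lists named with values were picked after their values were seen. The members, classes and lists were chosen with earlier results of these data known. The fits were run on simulated counts as a check of the code, with planted changes larger than those of the Slc25 gene sums here. A gene of the family is not reported here by name.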

Additional observations from a re-analysis of the deposited data

Results flagged for a closer look

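Within groups of 4 libraries, a library was marked where its gap to the nearest other library, divided by the range of the group, was above Dixon's 95% critical value. This was met in 2 of 80 groups, and chance marks about 1 in 20. At Slc25a28, the mitoferrin-2 gene, WT replicate 2 was at 204 CPM and the other 3 WT libraries at 174 to 176 CPM. Without that library the log2 fold change of the gene was 0.05 in place of -0.01. At Slc25a43, OPA1KO replicate 2 was at 37.3 CPM and the other 3 OPA1KO libraries at 26.9 to 28.4 CPM. Without it the log2 fold change was -0.29 in place of -0.18.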

How the results depend on the processing

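No Slc25 gene or region was called under any of the other scalings, tests, filters and windows, with the replicate block, or without any 1 library (0 in each). Over all features, leaving out WT replicate 2 raised the calls from 12 to 68 regions and from 2 to 48 genes, and DESeq2 called 38 regions and 9 genes, none of them Slc25. Titles give both groups the numbers 1 to 4. Deviations of same-numbered libraries correlated at -0.14 to -0.01, and those of differently numbered libraries at -0.27 to 0.24. No pairing by number was seen, but such correlations cannot show that libraries shared no batch. With the replicate block, 0 Slc25 genes and 0 regions were called, 24 of 40 genes were lower, and over all features 1 region and 2 genes were called.

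The order of WT levels kept 6 to 8 of its first 8 genes with narrower windows, the strongest region, gene ends or total counts and 8 of 8 without any 1 WT library. Other orders were chosen after seeing the data: CPM per kb kept 6, regions near no other gene kept 5 (of 28 genes) and start-site regions kept 3 (of 25 genes, those without a start-site entry being left out). Among the 8 most open genes and the 6 with the smallest p, the log2 fold changes that turned sign were near 0, except that of Slc25a26. Other genes also turned sign without 1 library. Among them, Slc25a21 ranged from -0.371 to 0.0613, Slc25a37 from -0.331 to 0.156 and Slc25a13 from -0.141 to 0.0816. With total counts, Slc25a41 was at 0.0141, Slc25a28 at 0.00886 and Slc25a32 at 0.00334. Slc25a26, at -0.26 from all its regions, was at 0.0803 from its strongest region alone. Leaving out 1 library at a time gave -0.0501 to 0.0324 for Slc25a41, -0.0325 to 0.0454 for Slc25a28, -0.0193 to 0.0535 for Slc25a42, -0.0395 to 0.0254 for Slc25a32, -0.0314 to 0.0716 for Slc25a3 and -0.0889 to 0.00320 for Slc25a39, while Slc25a26 stayed between -0.325 and -0.189. The cause was not tested. It also left 20 to 24 genes and 50 to 63 regions lower. Depth limits the least open genes most, where standard errors reached 0.36.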
